A study of Mus musculus with 9 samples.

Results

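The 10 genes described here are Egr1, Egr2, Ier2, Ier3, Ier5, Zfp36, Btg2, Dusp1, Dusp2 and Dusp6, which encode early growth response factors, immediate early response proteins, mRNA-decay proteins and dual-specificity phosphatases. They were chosen by exact gene symbol, each matched 1 of the 59445 features of the expression table, and all 10 were among the 15288 features that passed a filter on low values, which asked for 10 or more normalized reads in 4 or more libraries. Expression was measured by RNA sequencing of F4/80+ CD11b+ macrophages, which were taken by flow sorting from the non-parenchymal cells of the liver. The groups were 5 male C57BL/6 mice labelled MAGL Mye-/- (libraries S8 to S12), of which 3 were 10 weeks old and 2 were 11 weeks old, and 4 male C57BL/6 mice labelled MAGL fl/fl (WT) (libraries S1, S3, S4 and S5), all 11 weeks old. MAGL is monoacylglycerol lipase, encoded by Mgll, and the sources used here do not name the Cre line behind the Mye-/- label. Every mouse of both groups had received 1 intraperitoneal injection of the hepatotoxin carbon tetrachloride (CCl4), labelled 0.6 mg/kg, 24 hours earlier, so that no uninjured liver enters the comparison.

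Immediate-early genes are transcribed within minutes of a stimulus, without new protein synthesis. In macrophages the MAP kinases ERK, p38 and JNK switch them on through serum response factor and its partners, which bind CArG boxes in promoters, and through CREB, which binds cyclic AMP response elements. Many of the products then end the response: Egr factors induce their own corepressors, Zfp36 (tristetraprolin) and Btg2 direct mRNAs to deadenylation, and the Dusp enzymes remove phosphate from the MAP kinases. Enzymatic isolation of liver cells is itself known to induce this class of genes.

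Libraries held 35691354 to 46489349 reads in Mye-/- and 33383559 to 43884866 reads in fl/fl. The authors divided reads by 1 size factor per library without correcting for gene length, and these values are called normalized reads below. Mgll was near the detection limit, at 0 to 46.6 normalized reads in Mye-/- and 0 to 106.5 in fl/fl, and so did not check the labels. Of 6 macrophage identity genes all were detected, and their summed level was 340079 to 436649 in Mye-/- and 478911 to 614379 in fl/fl. The feature of Lyz2 and its near-identical copy Lyz1 (lysozyme) made up most of that gap, at 143570 to 204782 in Mye-/- against 221530 to 422118 in fl/fl (limma adjusted p = 0.218). Haemoglobin and platelet markers, 7 of 7 detected, summed to 2552 to 6823 in Mye-/- and 5895 to 35204 in fl/fl, highest in fl/fl S3, which also had the largest mitochondrial share of reads, 9.45% against 3.49% to 7.09% elsewhere. Neutrophil markers, 9 of 9 detected, summed to 12198 to 33736 in Mye-/- and 24892 to 45050.2 in fl/fl. The part of these in the results below was not tested, and in bulk RNA fewer cells of a type and less RNA per cell cannot be told apart.

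No gene of the 10 passed the test between genotypes. The comparison asks how liver macrophages differ between the 2 genotypes after acute injury. With limma and adjustment over all features, 0 of the 10 passed at 0.05, where 0.0196% of all features did, and the lowest adjusted p was 0.356, for Dusp2. Still, 8 were higher in Mye-/- on the log2 scale, against 54.6% of all features, with a median log2 fold change of 0.30, against 0.06 over all features tested and -0.0014 over the 7198 features with a mean of at least 500 normalized reads, as all 10 genes have. At an unadjusted p under 0.05, 4 were higher (Dusp2, Btg2, Dusp6 and Ier5), where 6.38% of all features were, and 0 were lower, where 4.13% were. Of the 7198 features with a mean of at least 500, 49.8% were higher, and 7.75% were higher at an unadjusted p under 0.05. DESeq2 and edgeR on the recovered whole reads each also passed 0 of 10 after adjustment, where 2.12% of the 5801 features with a DESeq2 adjusted p and 0.0131% of all features with edgeR passed. At an unadjusted p under 0.05 each tool had 5 of the 10 higher, where 4.61% of features with DESeq2 and 4.28% with edgeR were. The 10 genes were proposed with results of these data known, so these counts describe them and do not set them apart from other genes. With age as a covariate, or among the 11-week-old mice, the number at an unadjusted p under 0.05 was 0. The median log2 fold change was 0.28 in both settings. Age differed only within Mye-/-, so both settings gave the same fold changes, with Mye-/- resting on its 2 mice of 11 weeks. They are not separate checks. The number was also 0 without an intensity trend in limma. Without fl/fl S3, Ier5 and Dusp2 were at an unadjusted p under 0.05, where 6.49% of all features were higher. The summed level of 8 other genes known to respond to tissue dissociation was also higher, at 445265 to 506090 normalized reads in Mye-/- and 347075 to 429701 in fl/fl. That sum is weighted towards Fos, with a mean of 180812 in Mye-/- and 154345 in fl/fl, and Nr4a1, at 131815 and 112333.5. Each of these 2 genes overlapped between the groups (limma adjusted p = 0.659 and 0.614). The part of the dissociation genes in the result was not tested.

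**Figure D1:**
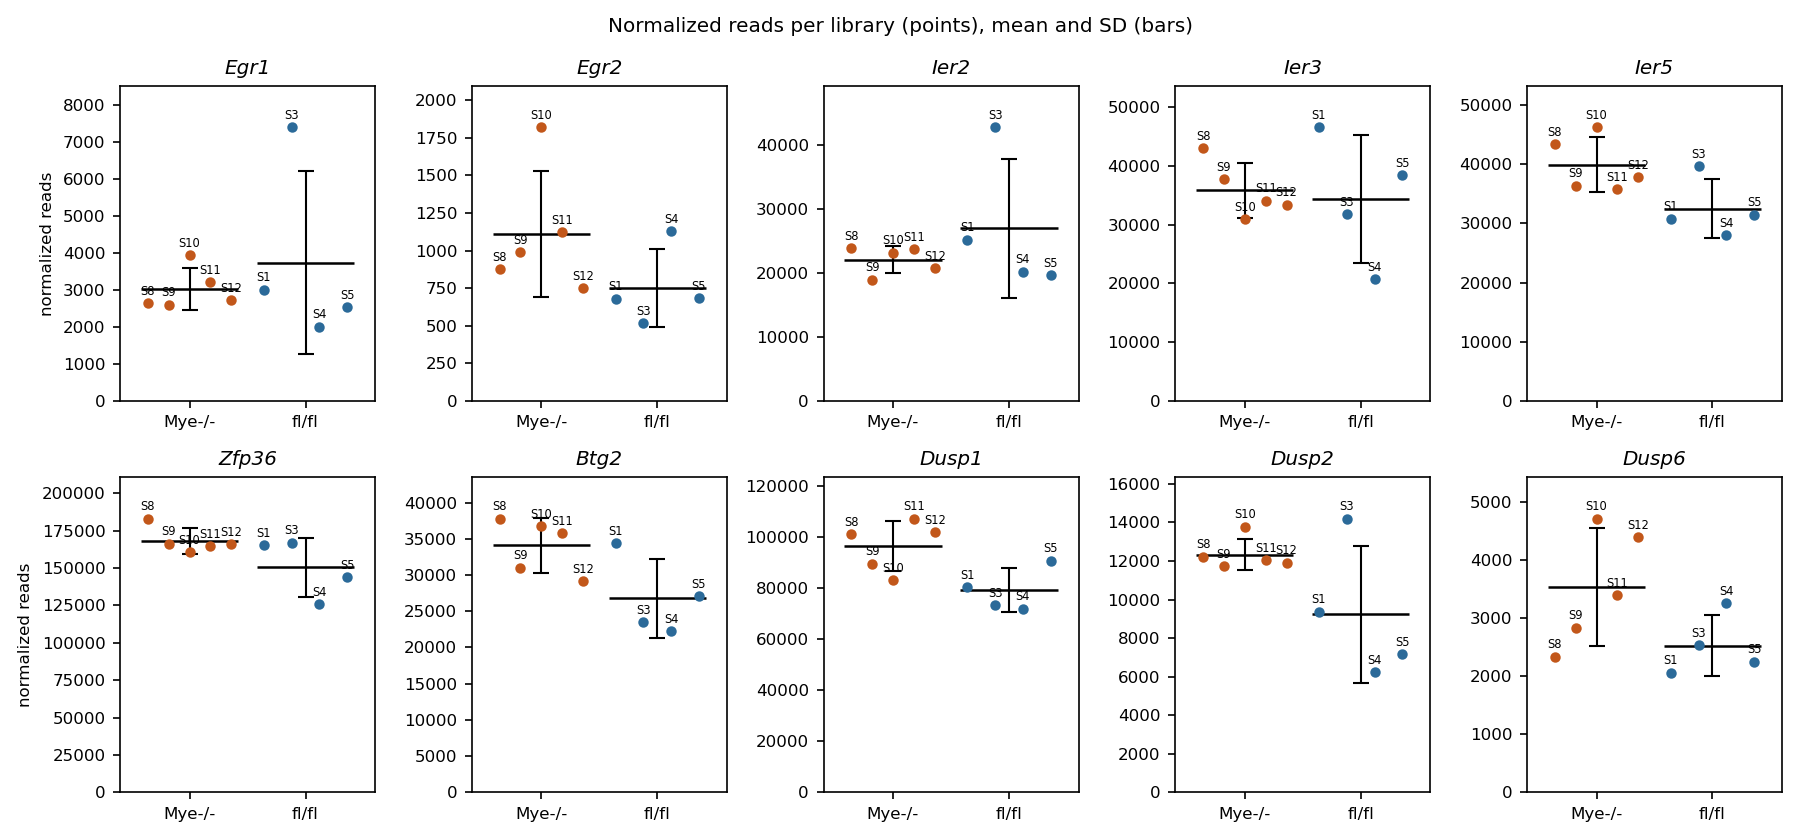
Normalized reads of the 10 genes in each library (points, labelled by library), with Mye-/- left and fl/fl right. Horizontal lines are means and bars are SD (n = 5 and n = 4), on linear axes from 0. Dusp1, Btg2 and Ier5 lie mostly higher in Mye-/-, and fl/fl S3 stands far above the other fl/fl libraries for Egr1, Ier2 and Dusp2.

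Egr1 and Egr2 are zinc-finger transcription factors that share a GC-rich binding site, and Egr1 is the standard readout of ERK activity. Egr1 (chromosome 18, 34859823 to 34864981, mm10) had 2639, 2598, 3939, 3200.3 and 2728 normalized reads in Mye-/- S8 to S12, against 3001, 7394, 2004 and 2533 in the fl/fl libraries, in the order S1, S3, S4, S5 that is kept below. A single control library, S3, was 2.94-fold above the mean of the other fl/fl libraries, while all 5 Mye-/- values lay inside the fl/fl range. The means were 3021 ± 567 in Mye-/- and 3733 ± 2474.5 in fl/fl (SD, n = 5 and n = 4), a log2 fold change of -0.13 ± 0.27 (SE, limma adjusted p = 0.898). Without fl/fl S3 the fl/fl mean was 2513 ± 499 (SD, n = 3) and the log2 fold change turned to 0.27 (limma adjusted p = 0.636). Egr2 (chromosome 10, 67537868 to 67542187), the less abundant of the pair, is linked to alternative activation and tolerance in mouse macrophages. It had 875, 989.8, 1821, 1121 and 749.9 normalized reads in Mye-/- S8 to S12, against 680.1, 518, 1127 and 682 in fl/fl. Here fl/fl S3 was the lowest of all 9 libraries and Mye-/- S10 the highest, so the Egr genes differed in fl/fl S3, although both had their highest Mye-/- value in S10. Its mean was 1111 ± 419.9 in Mye-/- and 752 ± 262 in fl/fl (SD, n = 5 and n = 4). Egr2 had the largest log2 fold change of the 10, 0.55 ± 0.28, but also the largest SE (limma adjusted p = 0.504). With age as a covariate the log2 fold change of Egr2 was 0.17, and it was 0.88 with a term for features detected per library.

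Ier2, Ier3 and Ier5 encode small proteins of unlike function that were named for their rapid induction. Ier2 (chromosome 8, 84659551 to 84662854), a nuclear protein, had 23827, 18936, 23127, 23730.0 and 20751 normalized reads in Mye-/- S8 to S12, against 25165, 42756, 20183 and 19606 in fl/fl. As with Egr1, the sign of the difference changed when fl/fl S3 was left out. The log2 fold change was -0.22 ± 0.19 (SE, limma adjusted p = 0.717) with that library and 0.03 without it. Ier3 (chromosome 17, 35821683 to 35822916), also called IEX-1, acts on cell survival downstream of NF-kappaB and ERK. It had 42993, 37744, 30898, 34061 and 33414 normalized reads in Mye-/-, against 46593, 31799, 20691 and 38421 in fl/fl. The fl/fl values spanned both ends of the range, and the log2 fold change was 0.11 ± 0.19 (SE, limma adjusted p = 0.868), turning to -0.11 without fl/fl S4. Ier5 (chromosome 1, 155096367 to 155099636), which binds protein phosphatase PP2A and promotes heat shock factor activity, was the only one of the 3 at an unadjusted p under 0.05. It had 43394, 36338, 46254, 35722 and 37799 normalized reads in Mye-/-, against 30807, 39623, 27969 and 31452 in fl/fl. Its 5 Mye-/- libraries lay above 3 of the 4 fl/fl libraries, and only S3 overlapped. The means were 39901 ± 4668 in Mye-/- and 32463 ± 5007 in fl/fl (SD, n = 5 and n = 4). For Ier5 that is a log2 fold change of 0.30 ± 0.14 (SE, limma adjusted p = 0.470).

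Zfp36 and Btg2 act after transcription. Zfp36 (chromosome 7, 28376784 to 28380253) binds AU-rich elements in 3' untranslated regions and brings in the CCR4-NOT deadenylase, and was the most abundant of the 10 genes. It had 182999.7, 166325, 160441, 164390.3 and 165876 normalized reads in Mye-/- S8 to S12, against 165250.0, 166879, 125642 and 143816 in fl/fl. The groups overlapped, since fl/fl S1 and S3 lay among the Mye-/- values and S4 and S5 below them all. Its means, 168006 ± 8696 in Mye-/- and 150397 ± 19565 in fl/fl (SD, n = 5 and n = 4), gave a log2 fold change of 0.17 ± 0.17 (SE, limma adjusted p = 0.758), or 0.084 without fl/fl S4. Btg2 (chromosome 1, 134074865 to 134079155) is an antiproliferative adaptor of the same deadenylase. It had 37791, 31033, 36732, 35768 and 29145 normalized reads in Mye-/-, against 34381, 23523, 22276 and 27046 in fl/fl. Here 3 Mye-/- libraries lay above every fl/fl library and 3 fl/fl libraries below every Mye-/- library, with fl/fl S1 between. The means were 34094 ± 3785 in Mye-/- and 26806 ± 5438.5 in fl/fl (SD, n = 5 and n = 4). Btg2 thus had a log2 fold change of 0.36 ± 0.15 (SE, limma adjusted p = 0.408).

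The 3 Dusp genes had log2 fold changes of 0.29 to 0.49, and none passed the test. Dusp1 (chromosome 17, 26505591 to 26508476), a nuclear phosphatase also called MKP-1 that dephosphorylates p38, JNK and ERK, is a main brake on cytokine production in macrophages. It had 100928, 89529, 83149, 107123 and 101701 normalized reads in Mye-/- S8 to S12, against 80354, 73234, 71827 and 90661 in fl/fl. In 3 Mye-/- libraries it exceeded every fl/fl library, and 3 fl/fl libraries lay below every Mye-/- library. The means were 96486 ± 9828 in Mye-/- and 79019 ± 8612 in fl/fl (SD, n = 5 and n = 4). Dusp1 thus had a log2 fold change of 0.29 ± 0.15 (SE, limma adjusted p = 0.519). Dusp2 (chromosome 2, 127336158 to 127338376), or PAC-1, is a nuclear phosphatase of immune cells. It had 12225, 11717, 13784, 12055 and 11912 normalized reads in Mye-/-, against 9372, 14202, 6232 and 7166 in fl/fl. The Mye-/- libraries were closely spaced (coefficient of variation 6.72%, against 38.5% in fl/fl) and lay above 3 of the 4 fl/fl libraries. Its means were 12339 ± 829 in Mye-/- and 9243 ± 3559 in fl/fl (SD, n = 5 and n = 4). Dusp2 had the smallest p of the 10, with a log2 fold change of 0.49 ± 0.18 (SE, limma adjusted p = 0.356). Without fl/fl S3 the fl/fl mean of Dusp2 was 7589.8 ± 1612 (SD, n = 3). The log2 fold change of Dusp2 was then 0.72 (limma adjusted p = 0.130). Without fl/fl S4 it was 0.32 and without fl/fl S5 0.39, both no longer at an unadjusted p under 0.05. That threshold was also missed with age as a covariate, among the 11-week-old mice and without an intensity trend. Dusp6 (chromosome 10, 99263228 to 99267488), or MKP-3, is a cytoplasmic phosphatase selective for ERK and induced by it. It had 2337, 2837, 4717, 3401 and 4398 normalized reads in Mye-/-, against 2062, 2538, 3260.3 and 2253 in fl/fl. Mye-/- S10 and S12 were the highest, and S8 and S9 overlapped the fl/fl libraries. Its means were 3538 ± 1010.3 in Mye-/- and 2529 ± 526 in fl/fl (SD, n = 5 and n = 4). Dusp6 thus had a log2 fold change of 0.46 ± 0.20 (SE, limma adjusted p = 0.450).

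**Figure D2:**
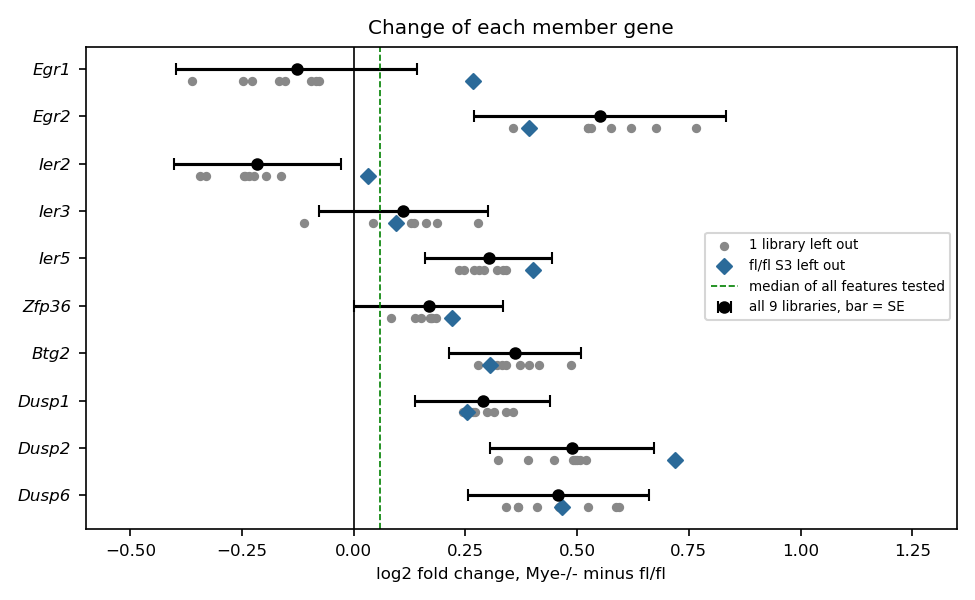
Log2 fold change, Mye-/- minus fl/fl, of each of the 10 genes with all 9 libraries (black points, bars are SE), with 1 library left out (grey points) and with fl/fl S3 left out (blue diamonds). The dashed line is the median of all features tested, 0.06. Egr1 and Ier2 cross 0 without fl/fl S3, Ier3 crosses it without fl/fl S4, and Dusp2 moves to 0.72 without fl/fl S3.

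The genes did not follow a common order of libraries. In fl/fl S3, Egr1, Ier2 and Dusp2 stood 1.58, 0.99 and 0.92 above the mean of the other fl/fl libraries on the log2 scale, and Ier5 0.40 above it, whereas Egr2 stood 0.64 and Btg2 0.22 below it. That library was the highest of the 9 for 3 genes and the lowest for 1. In fl/fl S4 the pattern was broader: it was the lowest of the 9 libraries for 7 of the 10 genes, yet Egr2 and Dusp6 were 0.86 and 0.52 above the mean of the other fl/fl libraries there. S4 also had the fewest detected features, 14240, against 14696 to 16802 in the others. Mye-/- S10 was the highest library for Egr2, Ier5 and Dusp6 and the lowest Mye-/- library for Ier3, Zfp36 and Dusp1. It held more hepatocyte RNA than the rest, with 7 of 7 markers detected at a summed 11060 normalized reads, against 1103 to 1840 in the other Mye-/- libraries and 601 to 1837 in fl/fl. Kupffer cell markers, 5 of 5 detected, were also highest in S10, at a summed 1821 normalized reads against 205 to 704 in the other Mye-/- libraries and 7.16 to 464 in fl/fl. Within fl/fl they were lowest in S3 and highest in S4, as Egr2 was. Hepatocyte, sinusoidal endothelial and stellate cell markers were also highest within fl/fl in S4, at a summed 1837, 833 and 208 normalized reads. Their lowest fl/fl libraries were S1, S1 and S5. The part of any of these marker lists in these values was not tested. Without Mye-/- S10 the log2 fold changes of Egr2 and Dusp6 were 0.36 and 0.34, and only Dusp2 kept an unadjusted limma p under 0.05. As a share of all reads, the 10 genes took 1.07% to 1.12% in the Mye-/- libraries and 0.806% to 1.03% in the fl/fl libraries. In normalized reads their sums overlapped, at 398045 to 450009.7 in Mye-/- and 301211 to 402467 in fl/fl. Both measures give the most abundant genes the most weight. Without Zfp36 the sums also overlapped, at 231721 to 267010 in Mye-/- and 175569 to 235588 in fl/fl.

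**Figure D3:**
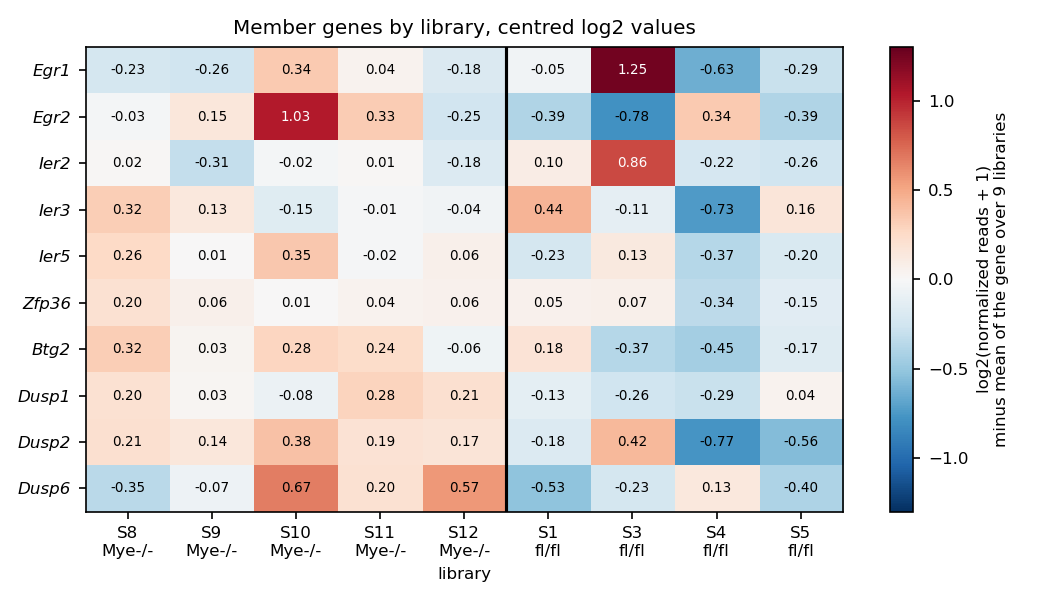
Log2(normalized reads + 1) of each of the 10 genes (rows) in each library (columns, Mye-/- left of the line and fl/fl right of it), minus the gene's mean over the 9 libraries. Egr1 reads 1.25 and Ier2 0.86 in fl/fl S3, where Egr2 reads -0.78. Most genes are below their mean in fl/fl S4.

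Per kilobase of the GENCODE principal transcript the levels ran over more than 2 orders of magnitude. Zfp36 led with 60217 ± 3117 normalized reads per kilobase in Mye-/- and 53906 ± 7013 in fl/fl (SD, n = 5 and n = 4). Dusp1 followed with 48485 ± 4939 in Mye-/- and 39708 ± 4328 in fl/fl, and Ier3 with 31673 ± 4153.5 in Mye-/- and 30394 ± 9679.7 in fl/fl. Ier2, Btg2 and Ier5 formed a middle group, at 14503, 12429 and 12179.9 in Mye-/- and 17692, 9773 and 9909 in fl/fl. Dusp2 averaged 7631 in Mye-/- and 5716 in fl/fl. Dusp6 averaged 1265 in Mye-/- and 904 in fl/fl, Egr1 674 in Mye-/- and 833 in fl/fl, and Egr2 375 in Mye-/- and 254 in fl/fl. Every neighbour in this order was the same way round in 5 of 5 Mye-/- libraries except Btg2 and Ier5, which were so in 3 of 5 Mye-/- and 2 of 4 fl/fl libraries and cannot be ranked. In fl/fl the order of Dusp1 and Ier3, and of Dusp6 and Egr1, held in 3 of 4 libraries. The Ier2 feature is longer than its 1522-base transcript, so its value per kilobase may be too high.

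The 10 genes share a compact structure. Their principal transcripts had a median of 2 exons and a genomic span of 3373 bases, against 9 exons and 21810 bases over 10513 tested genes with a coding transcript. AU-rich elements were sought because Zfp36 acts through them: the pentamer ATTTA lay in the 3' untranslated region of 9 of the 10 (67.8% of all tested genes), and the longer TATTTAT, the core that tristetraprolin prefers, in 5 of the 10 (29.3%). The 5 were Ier3 with 4 copies, Zfp36 and Dusp1 with 3 each, and Btg2 and Dusp2 with 1 each. Ier2 held neither motif, and Egr1, Egr2, Ier5 and Dusp6 held the pentamer alone. A site of each is shown from its GENCODE M21 transcript, 5' to 3', with the TATTTAT in capitals, to show how short the element is.
Ier3: tgtatgtaaTATTTATtctaactta
Zfp36: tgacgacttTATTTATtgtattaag
Btg2: atgaagagcTATTTATacatgtttt
Dusp1: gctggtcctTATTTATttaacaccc
Dusp2: agcactttaTATTTATatagaacat

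Promoters were read from RefSeq (GRCm38.p6), in a table of promoters that was matched by symbol for 8 of the 10 genes (Egr1 and Ier2 were not analysed here), as the 250 bases before and 50 after each gene's start. They were searched on both strands for 8 motifs, of which the CArG box, the cyclic AMP response element TGACGTCA and the Egr site GCGNGGGCG are followed here. A CArG box lay in 2 of 8, Egr2 and Zfp36, against 1.63% of all 32851 promoter windows in the table. The RefSeq start used for Zfp36 lies inside the interval of the Zfp36 feature, 28376784 to 28380253. Every match in the Zfp36 window therefore lies within that interval and not before it. TGACGTCA lay in Btg2 and Dusp1, against 1.79% of windows. GCGNGGGCG lay in Zfp36, Btg2 and Dusp2, against 5.55%, and in Dusp2 it overlaps a GC box, GGGCGG. Ier3, Ier5 and Dusp6 held none of the 3 motifs in this window. Of the other motifs, the shorter TGACG, which TGACGTCA contains, lay in 4 of 8 (20.8% of windows), GGGCGG in 6 (35.7%), the ETS site CCGGAAG in 1 (8.86%), and the AP-1 site TGANTCA (7.81%) and TATAAA (13.6%) in 0. The promoters of Btg2, Dusp1 and Dusp2 are shown 5' to 3' on the strand of the gene, with the 3 motifs followed here in capitals. Each ends before the first annotated exon base. The CArG boxes of Egr2 and Zfp36 follow with 10 bases on each side. A match describes the letters of the window and not binding.
Btg2, chr1:134079156-134079405, minus strand: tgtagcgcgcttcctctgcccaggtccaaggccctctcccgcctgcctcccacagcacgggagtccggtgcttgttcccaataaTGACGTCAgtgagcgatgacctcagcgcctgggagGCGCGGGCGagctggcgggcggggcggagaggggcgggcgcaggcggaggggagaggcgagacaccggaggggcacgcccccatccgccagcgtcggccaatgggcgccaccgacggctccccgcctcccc
Dusp1, chr17:26508520-26508722, minus strand: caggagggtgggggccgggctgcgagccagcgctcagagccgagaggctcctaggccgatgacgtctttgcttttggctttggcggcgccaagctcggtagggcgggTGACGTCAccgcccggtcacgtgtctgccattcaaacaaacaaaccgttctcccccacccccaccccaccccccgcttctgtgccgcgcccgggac
Dusp2, chr2:127335909-127336158, plus strand: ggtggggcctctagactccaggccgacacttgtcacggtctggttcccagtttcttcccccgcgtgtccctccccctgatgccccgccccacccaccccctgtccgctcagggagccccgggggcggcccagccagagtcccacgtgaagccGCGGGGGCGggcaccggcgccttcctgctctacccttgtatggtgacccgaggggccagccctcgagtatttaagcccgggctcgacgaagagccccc
Egr2, chr10:67537787-67537816, plus strand: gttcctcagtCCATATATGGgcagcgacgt
Zfp36, chr7:28379267-28379296, minus strand: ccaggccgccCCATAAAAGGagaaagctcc

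Related genes were described from 11 lists with 119 tested members, of which 91 were higher in Mye-/-. Of all features tested 54.6% were higher, and of those with a mean of at least 500 normalized reads 49.8%. These shares stand beside each count of higher genes below. Higher refers to log2 values, and some genes counted so had lower mean normalized reads in Mye-/-. With limma, 0 of the 119 passed after adjustment. At an unadjusted p under 0.05 there were 22, all higher in Mye-/-, where 6.38% of all features were. The lists were chosen with earlier results of these data known. The counts here and below therefore describe the lists and do not set them apart from other genes. DESeq2 called 5 of the 119, Zc3h12a, Map2k7, Il1b, Fosb and Atf3, all higher in Mye-/-. It called 2.12% of the 5801 features to which it gave an adjusted p, and 57 of those 123 were higher. Many of the 119 had no DESeq2 adjusted p, among them all 6 tested Sprouty and Spred genes. The count and the share therefore do not have the same base. Beside the Egr genes, 2 of 3 tested relatives and corepressors were higher, and the first by p, Egr3, was at 180.5 ± 54.1 normalized reads in Mye-/- and 155 ± 162 in fl/fl (SD, n = 5 and n = 4, as for the genes below). Beside the Ier genes, 18 of 19 immediate-early genes were higher (median log2 fold change 0.26), or 16 of 17 (median 0.26) among those above 0 in every library. Of the 19, 6 were higher at an unadjusted p under 0.05. The first of these, Mafk, a small Maf factor, was at 6406.5 ± 1012 in Mye-/- and 4523 ± 1205 in fl/fl (limma adjusted p = 0.318).

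Beside Zfp36, 10 of 14 tested RNA-binding and deadenylation genes were higher (median 0.14). Zc3h12a (regnase-1), an endonuclease for inflammatory mRNAs, was at 2281 ± 424 in Mye-/- and 1324 ± 322 in fl/fl, a log2 fold change of 0.80 ± 0.20 (SE, limma adjusted p = 0.218, DESeq2 adjusted p = 0.0360). Its lowest Mye-/- value, 1712, was above its highest fl/fl value, 1693, a separation seen in 1.70% of all features and in 0 of the 10 genes. Among the related genes, Map2k7 and Dusp11, described below, were also separated in this way. Of inflammatory mRNAs that Zfp36 is known to bind, 14 of 16 were higher (median 0.32), or 13 of 15 (median 0.31) among those above 0 in every library. Il1b was at 32235 ± 6994 in Mye-/- and 19381 ± 5378 in fl/fl (limma adjusted p = 0.218, DESeq2 adjusted p = 0.0197). Beside Btg2, all 4 tested BTG and TOB genes were higher (median 0.32), led (by smallest p, as below) by Tob2 at 11114 ± 1232 in Mye-/- and 8948.5 ± 1637 in fl/fl.

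Beside the Dusp genes, 5 of 6 other MAP kinase phosphatases were higher, with a median of 0.50 that rests on Dusp4 and Dusp8, both at 0 in some libraries. Over the 4 genes above 0 in every library the median was 0.23, with 3 higher. The list was led by Dusp5, a nuclear ERK phosphatase, at 2567 ± 342 in Mye-/- and 1782 ± 667 in fl/fl (limma adjusted p = 0.332). Atypical phosphatases had 4 of 8 higher (median -0.19), led by the RNA phosphatase Dusp11 at 10359 ± 571 in Mye-/- and 8519.7 ± 352 in fl/fl (limma adjusted p = 0.418). Sprouty and Spred inhibitors of ERK signalling had 3 of 6 higher (median 0.12), or 1 of 3 (median -0.23) among those above 0 in every library, led by Spred1 at 606 ± 168 in Mye-/- and 521 ± 472 in fl/fl. Of the MAP kinases and their activators, 16 of 27 were higher (median 0.02). The feature of the JNK kinase Map2k7, which also holds Tgfbr3l, was at 1464 ± 197 in Mye-/- and 894 ± 107 in fl/fl (limma adjusted p = 0.218, DESeq2 adjusted p = 0.0352). Of SRF, its cofactors and the CREB family genes Creb1 and Crem, 7 of 8 were higher (median 0.42), led by Creb1 at 1393 ± 283 in Mye-/- and 1037 ± 226 in fl/fl.

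**Figure D4:**
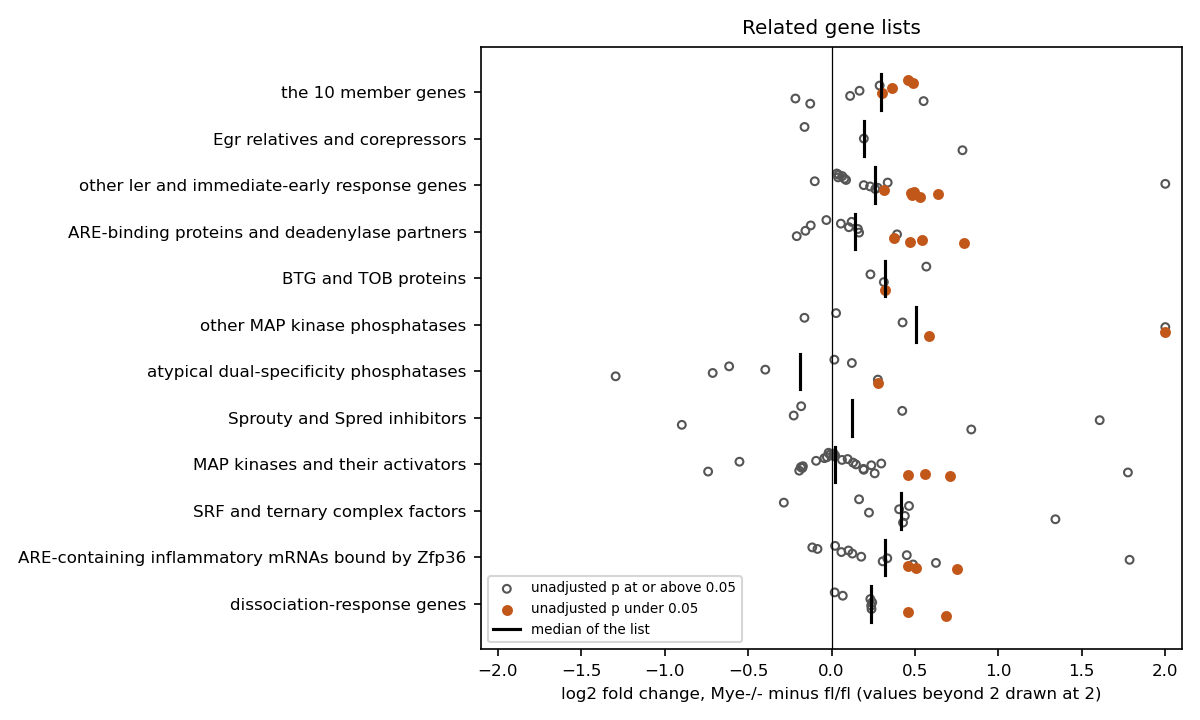
Log2 fold change, Mye-/- minus fl/fl, of the 10 genes and of each tested gene of the 11 related lists (1 point a gene, values beyond 2 drawn at 2). Filled points are at an unadjusted limma p under 0.05 and short lines are list medians. The median is 0.30 for the 10 genes and 0.02 for MAP kinases and their activators. Dusp4 and Dusp8, at the right edge among other MAP kinase phosphatases, are at 0 in some libraries, and the SRF list also holds Creb1 and Crem.

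Of 12 listed dissociation-response genes 8 were tested and all 8 were higher in Mye-/- (median log2 fold change 0.24), where 54.6% of all features were. Socs3 and Jund had log2 fold changes of only 0.02 and 0.07. Of the 8, 2 were at an unadjusted limma p under 0.05, Fosb and Atf3. Jun, Junb, Hspa1a and Hspa1b were not analysed here. Fosb, an AP-1 subunit, was at 32189.9 ± 5409 in Mye-/- and 20130.7 ± 4403 in fl/fl (limma adjusted p = 0.218, DESeq2 adjusted p = 0.00645), and Atf3 at 80441 ± 7775 in Mye-/- and 58893 ± 9605 in fl/fl (limma adjusted p = 0.318, DESeq2 adjusted p = 0.0223). The summed level was lowest in fl/fl S4, the library in which 7 of the 10 genes were lowest.

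Features were compared with the mean profile of the 10 genes, with Egr1 and with Dusp6. The measure was the root-mean-square difference of centred log2 values over the 9 libraries, among 6753 named features with a mean of at least 500. Nearest to the mean profile of the 10 genes was Nr4a1, an immediate-early nuclear receptor that is also on the dissociation list, at 0.0807, where the median feature was at 0.348, followed by Rxrb, the feature of Lrch4 and its neighbours, Hdac5 and Pbx2. Nr4a1 had 126155 to 140513 normalized reads in Mye-/- and 99266 to 127643 in fl/fl. Averaging 10 unlike profiles evens out their swings, so nearness to the mean is not likeness to each gene. The distance of the 10 genes themselves from their mean was not computed. Nearest to Egr1 was Ppp1r15a (GADD34), which ends the block of translation initiation under stress, at 0.126. It had 18036, 19655, 23042, 18844 and 16799 normalized reads in Mye-/- S8 to S12, against 16858, 43581, 12718 and 15159.6 in the fl/fl libraries, so that it too was highest in fl/fl S3. Gadd45b, Pqlc2, Cdkn2aip and 2610008E11Rik came next, and Ier2 was at 0.246 from Egr1 while Egr2 was at 0.814. Nearest to Dusp6 were Kif1c at 0.115, Smad7, Ace, Lrp5 and Itgal, and none of the other 9 genes was nearer to Dusp6 than 0.377, the value of Ier5.

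Several of the 10 genes overlap a second feature without a symbol, whose strand the table does not give. The one over Zfp36 averaged 1711 normalized reads in Mye-/- and 1682 in fl/fl, and the one over Dusp1 averaged 648 in Mye-/- and 645 in fl/fl, both small beside the genes they cover (limma adjusted p = 0.964 and 0.984). Those over Egr2, Ier5 and Dusp2 averaged 53.2, 33.9 and 154 in Mye-/- and 46.6, 30.15 and 123 in fl/fl. The sources used here do not give the strand setting of the counting, so reads of such pairs cannot be told apart.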

How the data were processed

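The deposited table gives a signal per feature: the authors' read counts divided by 1 DESeq size factor per sample, per the file headers. The submitters' processing notes name DESeq, STAR 2.4.0, SAMtools, Picard, FastQC and mm10. How reads were counted, by strand or with duplicates, is not given in the sources used here. Every nonzero value was a whole multiple of its column's smallest value (100% within 0.01 reads), so whole reads were recovered and no other sample column was present. Without molecular identifiers, reads are not separate molecules.

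Mye-/- was compared with fl/fl with limma-trend (limma 3.58.1, R 4.3.3) on log2(normalized value + 1), two-sided, with Benjamini-Hochberg adjustment over 15288 features. Each fold change is the Mye-/- mean minus the fl/fl mean of these log2 values. For low genes it can understate a change, or overstate one where some libraries are at 0. edgeR 4.0.16 and DESeq2 1.42.0 were run on the whole reads as alternatives. The fits were tested on simulated data. Replicates carry separate sample names, and p-values measure only the spread between these samples. The genes named are the 10 members, those with the smallest p in each related list (up to 3), the 5 nearest profiles for each of the mean, Egr1 and Dusp6, and overlapping features without a symbol. Members and lists were chosen with earlier results of these data known. Jund had no symbol and was matched by its GENCODE M21 interval (Jaccard overlap of at least 0.8). GENCODE M21 and RefSeq, both GRCm38, gave transcripts and promoters.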

Additional observations from a re-analysis of the deposited data

Results flagged for a closer look

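Each of the 10 genes was checked in both groups for a library far from the rest, by the gap to its nearest neighbour over the group's range. In 20 groups 2 libraries stood out, where chance flags about 1 in 20 groups. Zfp36 was at 182999.7 normalized reads in Mye-/- S8, against 160441 to 166325 in the other Mye-/- libraries. Dusp2 was at 13784 normalized reads in Mye-/- S10, against 11717 to 12225 in the other Mye-/- libraries. Egr1 in fl/fl S3, at 7394 against 2004 to 3001 in the other fl/fl libraries, fell just short of the limit for 4 samples.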

How the results depend on the processing

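Over 23 alternatives (other pseudocounts, filters, scalings, limma settings and count models, age or detected features as a covariate, 11-week-old mice only, and each library left out) 0 of the 10 genes passed after adjustment. Their median log2 fold change ran from 0.22 to 0.34. TMM scaling and quantile normalization shifted the median of all features by 0.01 and -0.05. The number of the 10 at an unadjusted p under 0.05, 4 as reported, was 0 without an intensity trend, in 11-week-old mice alone and with an age term, and 1 (without Mye-/- S10) to 4 with 1 library left out. Leaving out any 1 of Mye-/- S8, Mye-/- S11 or the 4 fl/fl libraries gave 2. The age term and the 11-week-old mice alone gave the same fold changes and are not separate estimates.

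Direction changed for 3 genes, and the cause was not tested. With detected features as a covariate the log2 fold change was 0.10 for Egr1, -0.24 for Ier3, -0.014 for Ier2, 0.88 for Egr2, 0.73 for Dusp6 and 0.16 for Dusp1. With 1 library left out it ran from -0.36 to 0.27 for Egr1 and from -0.34 to 0.031 for Ier2, highest without fl/fl S3, and from -0.11 (without fl/fl S4) to 0.28 for Ier3. Without fl/fl S4 it was 0.084 for Zfp36 and 0.32 for Dusp2. Egr1 was at -0.29 with edgeR and -0.31 with DESeq2, and Ier3 at 0.068 and 0.057. The other 7 genes kept their direction throughout. Features past the threshold, 3 as reported, numbered 17 with a pseudocount of 8, 6 with TMM scaling, 8 with quantile normalization, 21 without an intensity trend, 9 with robust limma, 5 with array weights and 123 with DESeq2. They numbered 0 with either covariate and among 11-week-old mice, and 0 (without Mye-/- S8 or S10) to 20 (without fl/fl S5) with 1 library left out. Related genes past the threshold, an alternative chosen after seeing the data, numbered 5 with DESeq2 and 0 otherwise. No paired analysis was possible because the groups share no replicate numbers. Egr2, the least abundant of the 10 genes, had 434 to 2148 reads a library.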
